A study of Mus musculus with 2 samples.

Results

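Krt8, which is abundant in GL261 neurospheres, was detected in few GL261 cells grown attached to the flask. These cells are the 136 adherent cells in which at least 1 unique molecular identifier (UMI, the count of 1 captured RNA molecule) was assigned to Krt8, out of 5051 adherent cells kept after quality filters. They made up 2.69% of the kept adherent cells, with an exact 95% binomial interval of 2.26% to 3.18%. The other 4915 kept adherent cells held 0 Krt8 UMIs, and 4276 kept neurosphere cells served as the reference, so that 9327 cells entered in all. The cells were chosen by their Krt8 count, so their Krt8 level is a description and not a result.

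GL261 is a mouse glioma line from the C57BL/6 strain that is used as a model of glioblastoma. Adherent cells grew in DMEM that held 10% fetal bovine serum (FBS) and also penicillin-streptomycin at 1%. Neurospheres, which are floating clusters of cells, were formed over 12 days in the same medium with EGF at 20 ng/mL, FGF at 20 ng/mL and B-27. Both preparations were frozen in culture medium with DMSO before the 10x Genomics 3' libraries were made. Each condition was 1 library with no replicate, so no p-value is given, and the 136 cells are cells of 1 culture rather than replicates. All intervals are exact 95% intervals that cover counting error only, and they are too narrow for genes whose UMIs sit in a few cells.

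Krt8 is a type II keratin, and Krt18 is the type I keratin with which it pairs to build the intermediate filaments of simple epithelia such as gut and liver lining. A keratin without a partner of the other type is short-lived. Glial cells and gliomas mostly build their filaments from vimentin, nestin and GFAP instead. In the GRCm38 build the genes are neighbours on chromosome 15, with Krt8 at chr15:101996698-102004482 on the minus strand and Krt18 at chr15:102028180-102032027 on the plus strand.

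Most of these cells carried a single Krt8 molecule. Of the 136 cells, 112 held 1 UMI, 15 held 2, 5 held 3, and 1 cell each held 4, 5, 7 and 9. The rule therefore separated cells with 1 UMI just inside it from cells with 0 just outside it. The 24 cells with at least 2 UMIs accounted for 70 of the 182 Krt8 UMIs. Per cell the Krt8 level ran from 33.2 to 507 CPM (counts per 1000000 UMIs of the genes left after filtering), with a median of 106 CPM. Among neurosphere cells, 3221 (75.3%) held a Krt8 UMI, and these had a median of 1868 CPM with quartiles of 268 and 5972 CPM. Hence 1022 of them (31.7%) lay at or below the highest of the 136 adherent cells. Summed over each library, Krt8 stood at 3.93 CPM (3.38 to 4.55) in adherent and 3025 CPM in neurosphere cells.

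**Figure D1:**
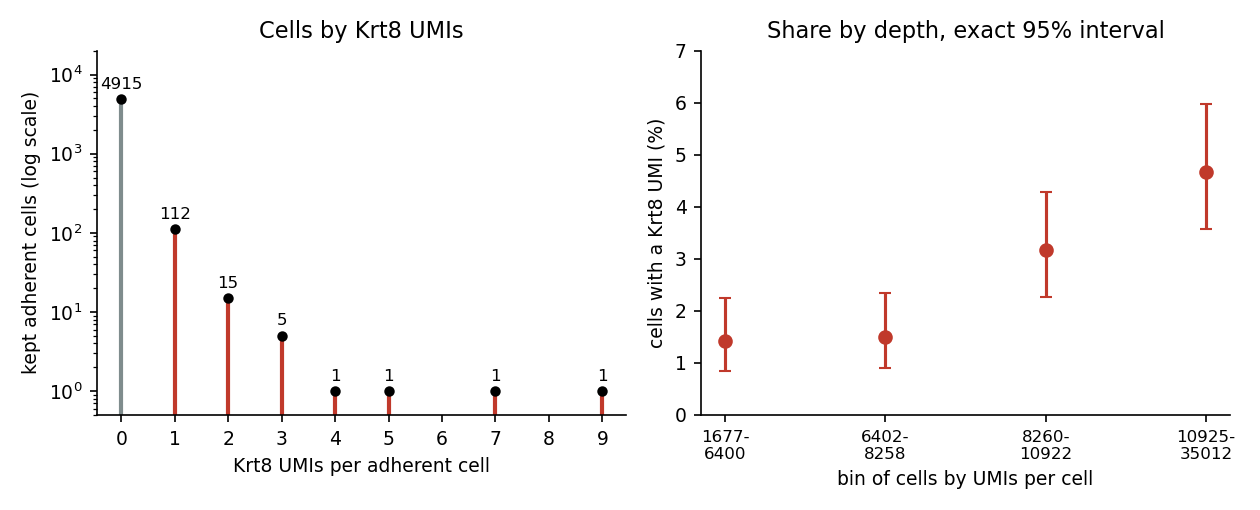
Left, number of kept adherent cells (log scale) by their Krt8 UMI count; 4915 cells held 0, 112 held 1 and 24 held 2 or more. Right, percentage of cells with a Krt8 UMI in 4 equal bins of the adherent cells by UMIs per cell, with exact 95% binomial intervals; the share was 1.43% in the shallowest and 4.67% in the deepest bin.

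The Krt8 cells were sampled more deeply than the rest. Their median was 10305 UMIs and 3470 genes per cell, against 8205 UMIs and 3020 genes in the other adherent cells. The share of cells with a Krt8 UMI was 1.43%, 1.51%, 3.17% and 4.67% from the shallowest to the deepest of 4 equal bins of cells, while the Krt8 level in those bins was 3.27, 2.93, 3.68 and 4.79 CPM with overlapping intervals. The share of cells moved more with depth than the Krt8 level did. Of the 253 cells above the 95th percentile of UMIs, 19 were Krt8 cells, which is 13.97% of the 136. Mitochondrial UMIs took a median of 1.88% in the Krt8 cells and 2.03% in the others, and ribosomal protein UMIs took 29.97% and 29.6%. Because depth differed, shares of cells are also given after every cell was thinned to 5000 UMIs, which left 128 Krt8 cells and 4336 others and set aside 8 and 579 shallower cells. Cells kept the group given by their full counts, and 74 of the 128 (57.8%) still held a Krt8 UMI after thinning.

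Free RNA in the droplets can give a UMI in a cell that does not express a gene. This library holds a single cell line and no cell type that should lack Krt8, so a background share could not be measured. The 713 barcodes removed by the filters held 3 Krt8 UMIs among 392008, or 7.65 CPM (1.58 to 22.4). The libraries shared 12 cell barcodes, of which 10 were kept adherent cells and 0 were Krt8 cells.

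The label of these cells rests on Krt8 and Krt18, and Krt18 was nearly absent. It was found as 1 UMI in each of 2 Krt8 cells (1.47%, 0.18% to 5.21%) and in 3 of the 4915 others. This gave 1.23 CPM (0.15 to 4.44) against 0.07 CPM, a ratio of 18.3 with an interval of 1.53 to 160 that rests on 2 UMIs. Both of these cells were among the 24 with at least 2 Krt8 UMIs (8.33%, 1.03% to 27.0%), while 0 of the 112 cells with 1 Krt8 UMI held Krt18, which allows a share of cells with a Krt18 UMI, not of cells expressing it, of up to 3.24%. Over all 4276 kept neurosphere cells Krt18 stood at 26.1 CPM and was found in 6.15% of cells. In the 1022 neurosphere cells with Krt8 at or below the highest Krt8 cell, whose pooled Krt8 was 162 CPM against 112 CPM in the Krt8 cells, Krt18 stood at 1.44 CPM (0.92 to 2.14) and was found in 0.88% of cells. The adherent cells are therefore called here by their Krt8 count alone and given no cell type.

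Other keratins were as sparse. Of 51 further keratin genes, 13 had a UMI in any kept adherent cell and 49 had none in the Krt8 cells. The 10 keratin UMIs of the Krt8 cells were mostly Krt17, a keratin of epidermal appendages, whose 9 UMIs all lay in 1 cell. Of 17 other filament and linker genes, 8 had at least 500 UMIs, and of these Nes lay farthest from 0. Vim, which encodes vimentin, was 5271 CPM in the Krt8 cells and 5594 CPM in the others (log2 ratio -0.09, -0.12 to -0.05), and Lmna, a nuclear lamin, was 243 CPM in both. Nes, which encodes nestin, was 67.0 against 106 CPM (log2 ratio -0.66, -0.94 to -0.38). Des, the desmin gene of muscle, was found in 13.2% of Krt8 cells and 3.44% of others, with 19 UMIs spread over 18 cells, and at equal depth in 7.81% (3.81% to 13.9%) and 1.75% (1.38% to 2.19%). Nes and Des were chosen after their values were seen.

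Epcam, the epithelial cell adhesion molecule, was the epithelial gene that differed most evenly. It stood at 40.6 CPM in the Krt8 cells and 20.9 CPM in the other adherent cells (log2 ratio 0.96, 0.57 to 1.32), against 123 CPM in neurosphere cells. The 66 Epcam UMIs came from 42 Krt8 cells with no more than 3 in any of them. At 5000 UMIs per cell, Epcam was seen in 17.2% (11.1% to 24.9%) of Krt8 cells and 8.90% (8.07% to 9.79%) of others. Without the cell holding most Epcam UMIs the log2 ratio was 0.89.

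The rest of a list of 26 epithelial junction and identity genes was sparse. Over the whole list the Krt8 cells had 128 CPM and the others 112 CPM (log2 ratio 0.19, -0.02 to 0.39), and 11 of the 26 genes had no UMI in the Krt8 cells. Cdh1, which encodes E-cadherin, had 1 UMI in the Krt8 cells and 11 in the others. The claudin genes Cldn3, Cldn4, Cldn6 and Cldn7 and the desmoplakin gene Dsp had 0 in every kept adherent cell. Pkp2, a plakophilin of desmosomes, and Tjp1, a tight junction scaffold, had log2 ratios of -0.27 (-0.74 to 0.17) and -0.11 (-0.59 to 0.33), while Pkp3 was at 0.44, Tjp3 at 0.40, and Spint2, Elf3 and St14, on 3 or 4 UMIs each and named after their values were seen, at 0.95, 0.73 and 0.72. Of the 10 listed genes with at least 50 UMIs, 6 were above 0, with a median of 0.42 beside -0.08 over all 12631 such genes, and Epcam was the 1 whose interval lay above 0.

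The comparison next asked whether other genes that are high in neurospheres were also present in the Krt8 cells. Wnt6, which encodes a Wnt ligand, was found as 1 UMI in each of 2 Krt8 cells. Its level was 1.23 CPM in the Krt8 cells, 0.40 CPM in the other adherent cells and 230 CPM in neurosphere cells, where 58.3% of cells held it. The log2 ratio of Krt8 cells over others was 1.61 with an interval of -1.54 to 3.67, so no difference was detectable at this depth.

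Dll3, which encodes an inhibitory Notch ligand, had 3 UMIs in 3 Krt8 cells. This was 1.84 CPM against 0.74 CPM in the other adherent cells (log2 ratio 1.32, -1.03 to 2.99) and 249 CPM in neurosphere cells. Matn1, a cartilage matrix protein gene, had 0 UMIs in the Krt8 cells, which allows up to 2.27 CPM, and 0 in the other adherent cells, while neurosphere cells stood at 117 CPM.

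Ptgds, which encodes the lipocalin-type prostaglandin D synthase of brain and meninges, was the best detected of the named neurosphere genes. It gave 19 UMIs in 13 Krt8 cells, or 11.7 CPM, against 5.46 CPM in the other adherent cells (log2 ratio 1.10, 0.34 to 1.77) and 983 CPM in neurosphere cells. It was seen in 9.56% of Krt8 cells and 3.13% of others, and at equal depth in 4.69% (1.74% to 9.92%) and 1.89% (1.51% to 2.34%). Of the 19 UMIs, 7 were in 1 cell, and without that cell the log2 ratio was 0.45. Taking Wnt6, Ptgds and Dll3 together, 118 of the 136 cells held none of them, 18 held 1 of them, and 0 held more than 1.

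Neurosphere cells with little or no Krt8 were also high in these genes. The 1022 neurosphere cells with Krt8 at or below the highest adherent Krt8 cell had a pooled level of 178 CPM of Wnt6, 822 CPM of Ptgds, 269 CPM of Dll3 and 92.8 CPM of Matn1. The 1055 neurosphere cells with 0 Krt8 UMIs had 146 CPM of Wnt6, 857 CPM of Ptgds, 260 CPM of Dll3 and 103 CPM of Matn1. In the latter set 35.4% of cells held a Wnt6 UMI, 89.3% Ptgds, 48.2% Dll3 and 29.0% Matn1, against 1.47%, 9.56%, 2.21% and 0% of the adherent Krt8 cells, without thinning.

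**Figure D2:**
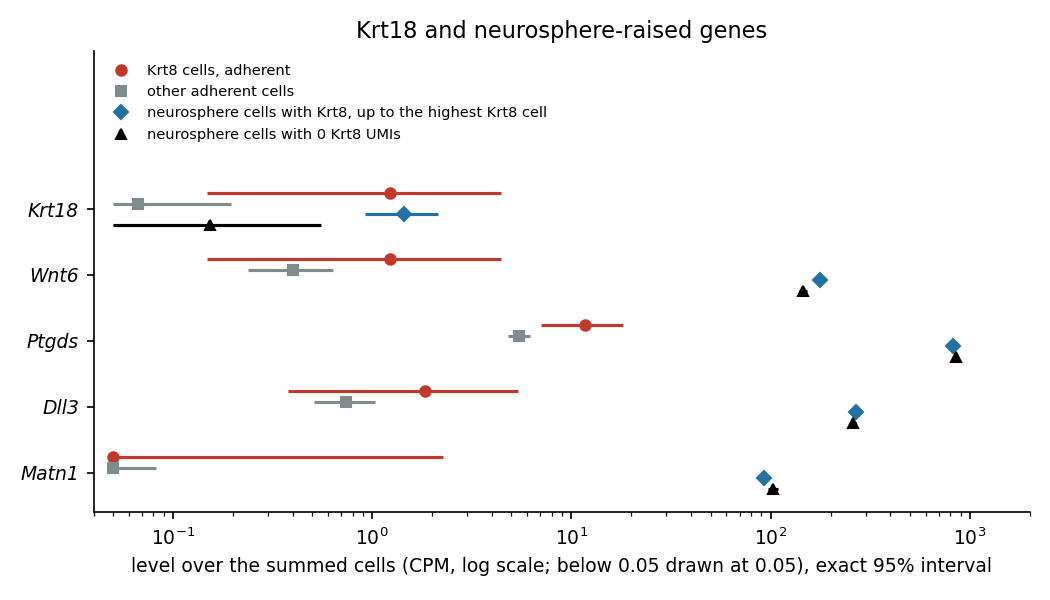
Pooled level (CPM, log scale, values below 0.05 drawn at 0.05) of Krt18 and 4 neurosphere-raised genes in the adherent Krt8 cells, the other adherent cells, neurosphere cells with Krt8 at or below the highest Krt8 cell, and neurosphere cells with 0 Krt8 UMIs; lines are exact 95% Poisson intervals. Wnt6 was 1.23, 0.40, 178 and 146 CPM in these sets, while Krt18 was at most 1.44 CPM in each. Over all kept neurosphere cells, which are not drawn, Krt18 was 26.1 CPM.

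The comparison was then made over the 50 genes with the largest neurosphere over adherent ratio, without Krt8 and Krt18. These genes were chosen as low in adherent cells, and ranking them without the Krt8 cells, a check added after seeing the data, gave the same 50 genes, so the Krt8 cells' own values did not decide the list. Summed over the list, the Krt8 cells had 364 CPM, the other adherent cells 311 CPM (log2 ratio 0.23, 0.11 to 0.35) and neurosphere cells, in which the list was chosen to be high, 17124 CPM. Per cell the medians were 274, 232 and 17340 CPM. The highest Krt8 cell reached 2225 CPM, below the 5th percentile of neurosphere cells at 5457 CPM, so 0 of the 136 cells reached that percentile. The lowest neurosphere cell was at 619 CPM, and 21 Krt8 cells were at or above it. In the other adherent cells 2 reached the 5th percentile of neurosphere cells, and both were shallow cells, of 2495 and 2734 UMIs, with 0 UMIs of Krt8, Krt18, Wnt6, Ptgds and Dll3.

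Cd81, a tetraspanin of the cell surface, supplied 50.2% of the list UMIs of the Krt8 cells. Cd81 stood at 183 CPM in Krt8 cells and 137 CPM in others (log2 ratio 0.42), and without it the list ratio was 0.06 (-0.11 to 0.23) on the log2 scale. The other abundant genes of the list went both ways, and the signs of Grasp, Enah, Grik2, Cadm2 and Lrp1b changed under at least 1 alternative. Grasp, a scaffold protein gene, had a log2 ratio of 0.18 and Enah, a regulator of actin, 0.16, while Grik2, a kainate receptor subunit, was at -0.05 and Cadm2, a synaptic adhesion gene, at -0.22. Lrp1b, a lipoprotein receptor family gene, was at -0.46 and Macrod2 at -0.67, with 33.2 against 52.8 CPM. Sncaip, the synphilin gene, was at -1.64 with 3 UMIs in the Krt8 cells, and Col3a1, a fibrillar collagen gene, at -0.34 with 5.

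By count, 3 of the 50 genes had no UMI in any kept adherent cell, and 40 of the other 47 had one in a Krt8 cell, where 70.2% of all genes with an adherent UMI did. Of these 47, 16 were at least 2-fold higher in the Krt8 cells by their point value, where 7.94% of all 21377 such genes were. Most of these rested on very few UMIs. Of the 36 listed genes with at least 10 and under 500 adherent UMIs, 13 (36.1%) were at least 2-fold higher, against 12.6% of all 7997 genes in that range, and none of the 13 had more than 19 UMIs in the Krt8 cells. With the Krt8 cell that held most UMIs of each gene left out, 3 of the 36 (8.33%) were, against 3.65% of all. These were Gm11884, Coq8a, which encodes a mitochondrial kinase of coenzyme Q synthesis, and Tssc4, and they were chosen after their values were seen. Of the 5 listed genes with at least 500 UMIs, 0 were 2-fold higher or lower. The 20 genes most raised in neurospheres had 39.3 against 18.2 CPM (log2 ratio 1.11, 0.72 to 1.48), from 64 UMIs in the Krt8 cells, beside 3667 CPM in neurospheres. The 100 most raised had 578 against 543 CPM (log2 ratio 0.092, -0.003 to 0.19), with an interval that included 0. By Krt8 count, the list of 50 genes stood at 311 CPM (306 to 316) in cells with 0 Krt8 UMIs. It was 318 CPM (288 to 350) in the 112 cells with 1 UMI. In the 24 cells with 2 or more it was 553 CPM (474 to 641). The interval of the 112 cells included the level of the cells with 0, so the pooled difference came mainly from the other 24.

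The mirror list held the 50 genes highest in adherent over neurosphere cells, of which 49 were also chosen when the Krt8 cells were left out of the ranking. Chosen to be high in adherent cells, it summed to 17699 CPM in Krt8 cells, 15423 CPM in other adherent cells (log2 ratio 0.20, 0.18 to 0.22) and 1114 CPM in neurosphere cells, and the per cell medians were 17016, 14714 and 634 CPM. Lgals3, the galectin-3 gene, was 6054 against 4736 CPM (log2 ratio 0.35, 0.32 to 0.38), and Ifitm3, an interferon-induced membrane protein gene, was 4367 against 4374 CPM. S100a4, a calcium-binding protein gene of motile cells, was 649 against 335 CPM (log2 ratio 0.95, 0.86 to 1.04) and was chosen after its values were seen. Of the 50 genes 30 were above the other cells, 2 of them at least 2-fold (Mt3 and Wfdc1), and 2310002F09Rik was at least 2-fold lower, where 36.8% of all genes with at least 500 UMIs were above 0 and 0.102% were 2-fold higher.

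**Figure D3:**
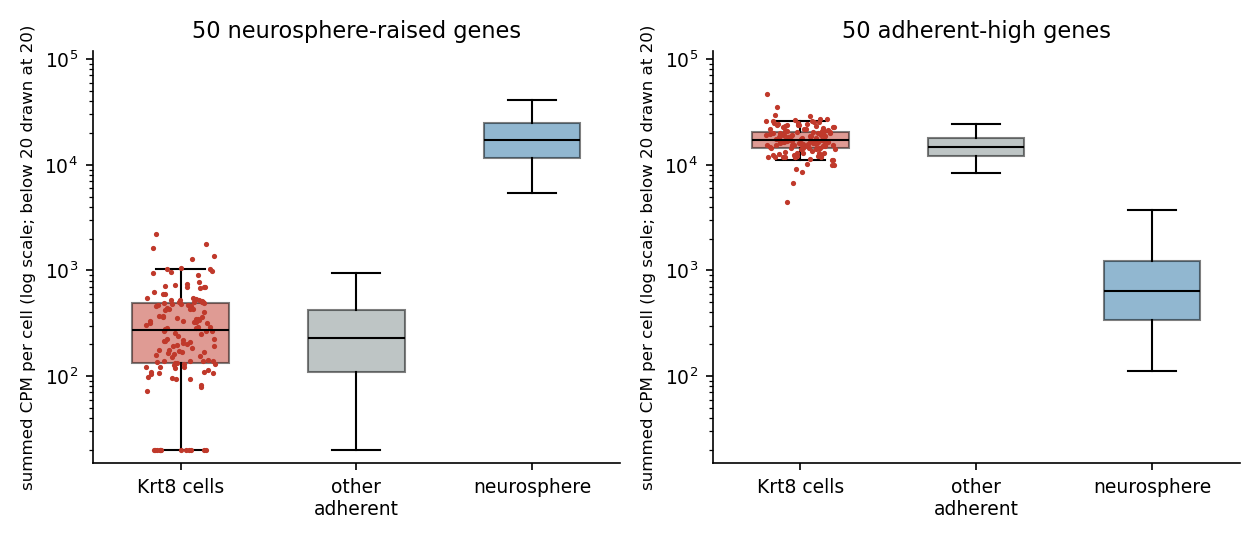
Summed level per cell (CPM, log scale, values below 20 drawn at 20) of the 50 neurosphere-raised and the 50 adherent-high genes in Krt8 cells, other adherent cells and neurosphere cells; boxes give quartiles and median, whiskers the 5th and 95th percentiles, and each point is 1 Krt8 cell. The medians of the raised list were 274, 232 and 17340 CPM and those of the adherent-high list 17016, 14714 and 634 CPM.

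Across all genes the Krt8 cells differed little from the other adherent cells. Of 7854 genes with at least 500 UMIs, Krt8 aside, 8 were at least 2-fold higher (0.102%) and 49 at least 2-fold lower (0.624%) by point value. The median log2 ratio was -0.07, with quartiles of -0.24 and 0.07. The 2-fold change lay outside the whole interval for 5 of the higher genes and 0 of the lower ones, and the lower genes had a median of 10 UMIs in the Krt8 cells and at most 33.

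Among the genes with at least 500 UMIs, the 3 largest ratios were those of Spp1, Areg and Il11. Spp1, which encodes osteopontin, stood at 227 CPM in the Krt8 cells and 50.7 CPM in the others (log2 ratio 2.17, 2.00 to 2.33). Areg, the EGF receptor ligand amphiregulin, was 88.5 against 20.0 CPM (2.15, 1.88 to 2.40). Il11, a cytokine of the interleukin-6 family, was 103 against 28.5 CPM (1.86, 1.62 to 2.09). All 3 were lower in neurosphere cells than in either adherent set, at 10.3, 2.56 and 3.66 CPM.

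These 3 levels were carried by a few cells. Per Krt8 cell the UMI count ran from 0 to 110 for Spp1, 0 to 68 for Areg and 0 to 75 for Il11, each with a median of 0, so the sets overlapped. The 3 richest cells held 247 of the 370 Spp1 UMIs, 98 of the 144 Areg UMIs and 122 of the 168 Il11 UMIs. Without the richest cell for each gene the log2 ratios were 1.67, 1.24 and 1.01, and without all cells above the 95th percentile of UMIs that of Areg was 1.06. The share of cells is less open to a single rich cell. At equal depth, Spp1 was seen in 14.8% of Krt8 cells (9.18% to 22.2%) and 6.71% of others (5.98% to 7.50%). The intervals overlapped for Areg, at 9.38% (4.94% to 15.8%) and 4.54% (3.94% to 5.21%), and for Il11, at 11.7% (6.71% to 18.6%) and 6.09% (5.40% to 6.84%). At least 1 of the 3 was seen in 39 of 128 Krt8 cells, or 30.5% (22.6% to 39.2%), and in 658 of 4336 others, or 15.2% (14.1% to 16.3%).

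Mt3, the brain-enriched metallothionein that binds zinc and copper, was higher in more of the cells. It stood at 438 CPM against 154 CPM (log2 ratio 1.51, 1.40 to 1.62) and at 10.9 CPM in neurosphere cells. Per cell it ran from 0 to 57 UMIs with a median of 1 in the Krt8 cells, and from 0 to 111 with a median of 0 in the others. At equal depth 49.2% of Krt8 cells (40.3% to 58.2%) and 30.5% of others (29.2% to 31.9%) held Mt3, and without the richest cell the log2 ratio was 1.41. Without all cells above the 95th percentile of UMIs the Mt3 ratio was 1.18, below its interval. Read the other way, 4.54% (3.51% to 5.77%) of thinned adherent cells with Mt3 and 2.11% (1.63% to 2.68%) of those without it were Krt8 cells.

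The remaining leading genes were lower in level. Wfdc1, a secreted protein with a WAP domain, was 46.1 against 20.9 CPM (1.14, 0.78 to 1.48), and Hebp1, a heme-binding protein, was 59.6 against 29.6 CPM (1.01, 0.70 to 1.31). Without cells above the 95th percentile of UMIs, Wfdc1 fell to 0.60, below its interval. Slc9a3r2, a PDZ scaffold of membrane transporters, was 20.9 against 10.4 CPM (1.00, 0.45 to 1.51), and Btbd17 was 25.8 against 13.3 CPM (0.96, 0.47 to 1.41). The lincRNA 9130015A21Rik had a log2 ratio of 1.67, but 37 of its 56 UMIs lay in 1 cell and without that cell the ratio was 0.13. With the richest cell for each gene left out, Spp1, Areg, Il11 and Mt3 stayed at least 2-fold higher.

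**Figure D4:**
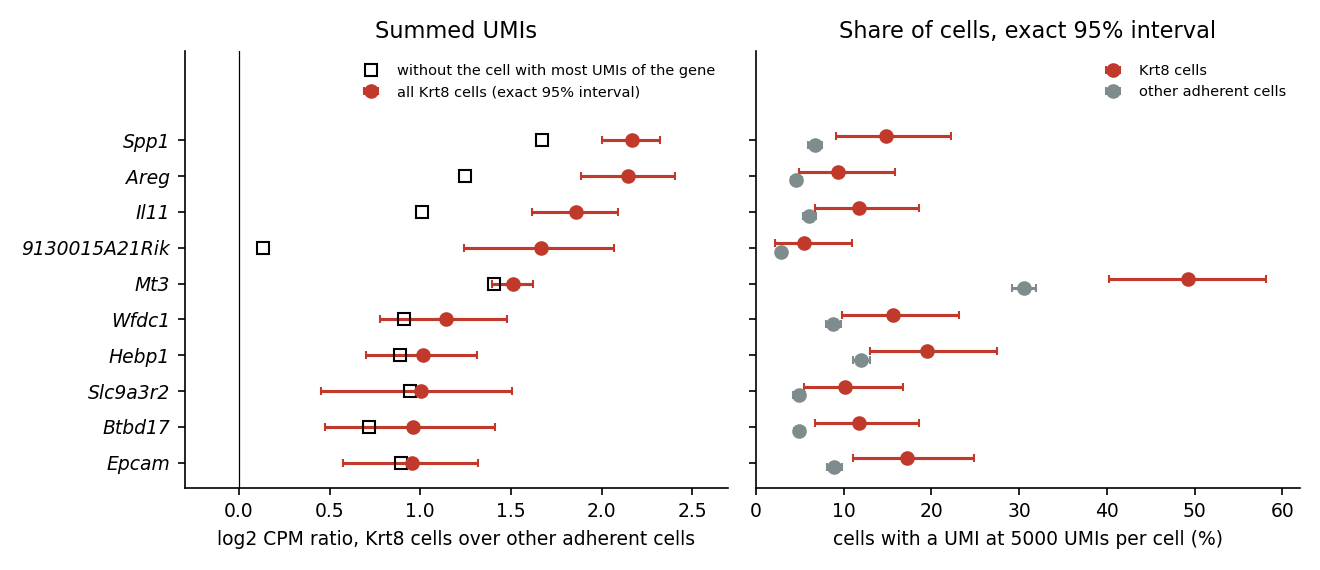
Left, log2 ratio of summed CPM, Krt8 cells over other adherent cells (circles, exact 95% intervals). The 10 genes with the largest ratios among those with at least 500 UMIs are shown. Squares leave out the Krt8 cell holding most UMIs of the gene. Right, percentage of cells with a UMI after thinning to 5000 UMIs, with exact 95% binomial intervals; Mt3 was seen in 49.2% of Krt8 cells and 30.5% of others, and 9130015A21Rik fell to a ratio of 0.13 without 1 cell.

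Spp1, Areg and Il11 were highest in cells with at least 2 Krt8 UMIs. Spp1 was 50.7 CPM in cells with 0 Krt8 UMIs, 90.8 CPM (75.3 to 109) with 1 and 793 CPM with 2 or more. Areg was 20.0, 29.0 and 335 CPM, and Il11 was 28.5, 27.5 and 417 CPM, so the pooled Il11 level of cells with 1 Krt8 UMI was not above that of the others. Single cells gave 110 of the 251 Spp1, 68 of the 106 Areg and 75 of the 132 Il11 UMIs of the 24 cells with at least 2 Krt8 UMIs. By share of cells, without thinning, Spp1 was seen in 9.36%, 20.5% and 29.2%, Mt3 in 40.2%, 60.7% and 75%, and Epcam in 14.97%, 28.6% and 41.7% of cells with 0, 1 and at least 2 Krt8 UMIs. Depth was not equal between these sets, and a deeper cell shows a UMI of any gene more often.

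The 9 cells with 3 or more Krt8 UMIs show how uneven this was. The cell with 9 Krt8 UMIs held 15 Areg and 40 Mt3 UMIs and 0 of Spp1 and Il11, and the cell with 7 held 6 Areg and 30 Mt3 UMIs. The cell with 5 held 110 Spp1, 5 Il11 and 23 Mt3 UMIs. A cell with 3 held 80 Spp1, 68 Areg, 57 Mt3, 7 Ptgds and 1 Krt18 UMI, while another with 3 held 75 Il11 and 6 Spp1 UMIs. In all, 7 of the 9 held Spp1, Areg or Il11, and 0 of them held Wnt6 or Dll3. The neurosphere-raised list in these 9 cells ran from 73.0 to 940 CPM.

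At the other end, the 10 lowest genes of those with at least 500 UMIs had log2 ratios from -1.88 to -1.38. They rested on 5 to 14 UMIs in the Krt8 cells. Among them were Stat2, which encodes an interferon signalling factor (8.61 against 24.6 CPM, -1.51, -2.39 to -0.76), Zfp36l2, an mRNA decay factor, and the Golgi and transport genes Golga1 and Trak2. The histone gene Hist1h3i had the lowest ratio, on 5 UMIs, but at equal depth it was -0.39, with a UMI in 3.91% (1.28% to 8.88%) of Krt8 cells and 4.80% (4.18% to 5.48%) of others. Fgd4, LTO1, Polr3f, Gm10501 and 0610030E20Rik completed them.

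Gene groups that mark other states showed small differences, to be read beside the 0.102% and 0.624% of all genes past 2-fold. Only the interferon and adherent-high lists had a gene past 2-fold among those with 500 UMIs. The interferon response list was 6891 against 7684 CPM (log2 ratio -0.16, -0.18 to -0.13), with Bst2 at -0.13, Isg15 at -0.10 and Cxcl10 at -0.48, and 1 of its 16 genes was above 0, beside 36.8% of all genes, while Stat2 was past 2-fold lower. The cartilage matrix list was -0.44 (-0.53 to -0.36), led by Col11a1, a fibrillar collagen, at 352 against 545 CPM. The oligodendrocyte list was -0.24, with Mbp, which encodes myelin basic protein, at -0.64 (-0.82 to -0.46) and Sox10 at 0.05, and the astrocyte list was -0.25.

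Summed signalling and growth lists lay near 0, though sparse members could differ. The Wnt list was -0.10 (-0.30 to 0.10), with the coreceptor gene Lrp6 at 61.5 against 68.1 CPM. Of its 23 genes with a UMI, 5 were at least 2-fold higher, each on at most 9 UMIs. The share was 7.94% over all genes with a UMI and 12.6% over those with at least 10 and under 500. The ligand genes Wnt7b at 1.74 (0.56 to 2.74) and Wnt10a at 1.36 (0.19 to 2.35), with 9 UMIs in 9 and 8 cells, were named after their values were seen. The Notch list was -0.05 (-0.28 to 0.16), with Notch1 at 18.4 against 26.2 CPM and Hes6 at 24.6 against 22.0 CPM. Of its 16 genes with a UMI, 5 were at least 2-fold higher, to be read beside the same shares. These were Hey2, Notch3, Dll3, Nrarp and Dll1, each on at most 7 UMIs in the Krt8 cells and with an interval that included 0. The AP-1, ETS and ERK feedback list was -0.13, with Fos at -0.24 (-0.50 to 0.01) and Jun at -0.28 (-0.51 to -0.07). The G1/S and G2/M lists were -0.10 and -0.07, the integrated stress response -0.06, p53 targets 0.05 and hypoxia 0.07. Mki67, a proliferation marker chosen after its values were seen, was 49.2 against 78.2 CPM. The dissociation stress list was 0.23 (0.16 to 0.30), led by the immediate early gene Ier3 at 426 against 254 CPM (0.74, 0.63 to 0.85), with 0 genes past 2-fold. Without Ier3 the list was -0.02 (-0.11 to 0.07).

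Markers of cells that could have been carried along were few. Of the 10 immune markers, 6 were at 0 in the Krt8 cells, among them Ptprc, Itgam, Tyrobp and Cd3e. The list was 24.6 against 18.2 CPM (log2 ratio 0.43, -0.06 to 0.89), and of its 40 UMIs in the Krt8 cells the lysosomal gene Cd68 held 26 and Cd74, the invariant chain gene, 10. Cd68, with a log2 ratio of 0.64 (0.0074 to 1.21), and Cd74 were named after their values were seen. Lyz2 had 3 UMIs and Csf1r 1. The mesenchymal list was -0.12, the neuron list 0.12 (-0.19 to 0.43) and the trophoblast and endoderm list -0.05 (-0.80 to 0.60). The blood and endothelium list was 1.87 (1.26 to 2.43) on 29 UMIs, of which 24 were Hba-a1, an alpha globin gene. Hba-a1 was found in 14 Krt8 cells (10.3%) and 96 others (1.95%), at most 3 UMIs in a Krt8 cell, and at equal depth in 7.03% (3.27% to 12.9%) and 1.08% (0.80% to 1.44%). The beta globin genes Hbb-bs and Hbb-bt and the endothelial genes Cdh5 and Kdr were at 0 in the Krt8 cells. The part of these markers in the ratios above was not tested.

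The Krt8 cells did not form a set of their own among the adherent cells. Cells were placed by 17 principal components of variable genes from which Krt8 and Krt18 had been removed. Of the 30 nearest neighbours of a Krt8 cell, 4.34% were Krt8 cells, against 2.17% of the neighbours of another cell, and 52 of the 136 had none. The share was 3.90% for cells with 1 Krt8 UMI and 6.39% for cells with 2 or more.

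By cluster the Krt8 level was uneven. Of 11 adherent clusters, 10 held at least 1 Krt8 cell, and the smallest, cluster 10, held 0 among 47 cells of a median 2600 UMIs, which allows a share of up to 7.55%. Cluster 5 had the highest Krt8 level, 9.42 CPM (6.53 to 13.2), with 18 Krt8 cells of which 8 held at least 2 UMIs, and also 485 CPM of Mt3, the highest of the 11. Cluster 4, the deepest at a median of 13072 UMIs, had 6.09 CPM (4.49 to 8.07) and the most Krt8 cells, 30 of 543. Clusters 3 and 2 had 1.03 CPM (0.28 to 2.63) and 1.22 CPM (0.49 to 2.52), with 4 and 7 Krt8 cells.

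**Figure D5:**
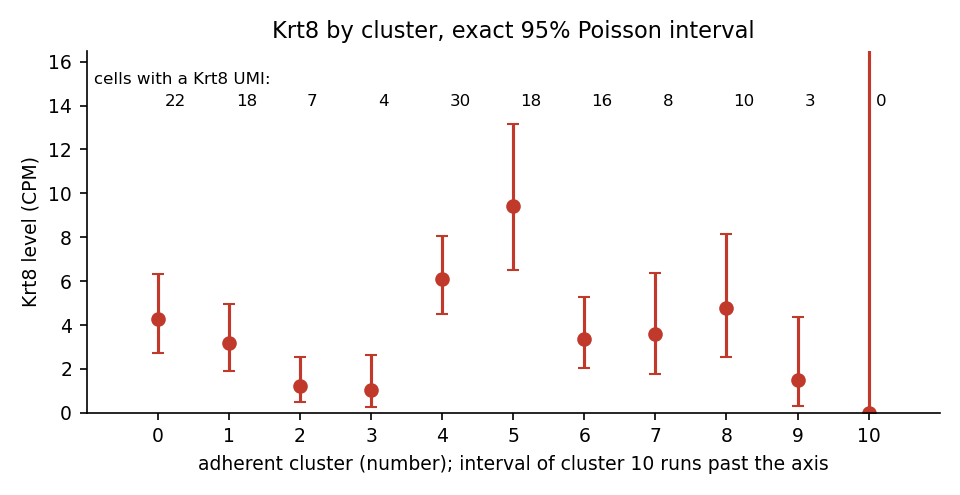
Krt8 level (CPM) in each of 11 adherent clusters with exact 95% Poisson intervals, and the number of cells with a Krt8 UMI above each. Cluster 5 was highest at 9.42 CPM, clusters 3 and 2 were among the lowest at 1.03 and 1.22 CPM, and cluster 10 held 0 Krt8 cells, with an interval that runs past the axis.

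Within clusters the point values of Mt3 and Epcam had the sign of the whole set. In the 6 clusters with at least 10 Krt8 cells, the log2 ratio of Mt3 was positive in 6, from 0.30 to 1.58, and that of Epcam in 6, from 0.04 to 2.13. The interval lay above 0 in 3 of the 6 clusters for Mt3 and in 1 for Epcam. Spp1 was not uniform. Its ratio was 3.53 in cluster 5 and 2.29 in cluster 4, but -1.58 in cluster 1 (57.3 against 171 CPM), and in cluster 6 it had 0 UMIs in the 16 Krt8 cells. Areg was 455 against 33.3 CPM in cluster 5 and 10.4 against 10.7 CPM in cluster 1. The neurosphere-raised list lay between -0.11 and 0.62 in these clusters.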

How the data were processed

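The authors deposited raw UMI count matrices of 1 adherent and 1 neurosphere 10x Genomics 3' v3 library, covering 5764 and 4951 called barcodes. The submitters' processing notes name Cell Ranger 7.0.1 and mm10; the gene annotation and the setting for intronic reads are not given in the sources used here. Gene positions came from GENCODE M21 (GRCm38). As in the study's methods, 13 mitochondrial and 101 ribosomal protein genes were removed and cells kept with at least 1000 UMIs and 1250 genes (2250 for neurospheres). Genes were removed before cells were filtered, which left 5051 and 4276 cells; with cells filtered first, 5073 and 4300 were left. Kept cells held 46290996 and 64943938 UMIs in all.

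UMIs were summed over Krt8 cells and over other cells, expressed as CPM and compared as log2 ratios with exact conditional intervals; a call was a 2-fold point difference among genes with at least 500 adherent UMIs. The gene lists (50 genes raised or lowered in neurospheres, and 20 lists by function) used genes with at least 100 UMIs where ranked. Genes named were the keratins and Wnt6, Ptgds, Dll3 and Matn1, the 10 highest and 10 lowest ratios, the 10 raised genes with most adherent UMIs and up to 4 of the most abundant genes of each list; others are said to be chosen after their values were seen. The cells and lists were chosen with earlier results of these data known. PCA and clusters used Seurat 5.3.0 in R 4.3.3 (2000 variable genes, 17 components, resolution 1.0), the rest Python 3.11.15 with scipy 1.17.1. Doublets were not called; an alternative left out cells above the 95th percentile of UMIs. The ratio intervals were tested on simulated data, and the outcome is not reported here.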

Additional observations from a re-analysis of the deposited data

How the results depend on the processing

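With 1 library per condition no result has a replicate check, and counting intervals do not cover differences between cells or cultures. No paired analysis was possible because each condition has 1 library and no result comes from a test. There were 79 values under alternatives, leaving aside the number of Krt8 cells, which most settings could not change. Of these, 54 stayed within the counting interval or 1.5 times the count. Counts of genes and shares of neighbours cannot change direction, and 0 of the ratios did. Thinning gave no Krt18 ratio, so that setting is not among them. Requiring at least 2 Krt8 UMIs left 24 cells, a neurosphere-raised log2 ratio of 0.83, an adherent-high ratio of 0.36, and 108 genes 2-fold higher and 848 lower. Thinning to 5000 UMIs gave 21 genes higher and 180 lower, and 10 raised genes higher in place of 16. The share of all genes past 2-fold after thinning is not given here, so the 10 cannot be set beside it. Thinning left a Krt18 UMI in 0 Krt8 cells and in 3 others. Lists of 20 genes gave ratios of 1.11 (raised) and 0.16 (adherent-high), and lists of 100 genes gave 0.092 and 0.16. Of the 18 genes with a UMI in the raised list of 20, 10 were 2-fold higher, beside 7.94% of all genes. A minimum of 200 UMIs per gene gave 41 higher and 213 lower, a minimum of 2000 gave 2 and 1, and no minimum 1698 and 6962. The number of genes compared changed with the minimum, so these counts are not comparable as they stand. Weighting the other cells to the depth of the Krt8 cells gave 28 lower. Without the deepest cells the adherent-high ratio was 0.23. In alternatives chosen after seeing the data, ranking the lists without the Krt8 cells gave 0.23 (raised) and 0.20 (adherent-high), weighting to the clusters gave 0.14 for the adherent-high ratio and 5 higher genes, and leaving out the richest Krt8 cell for each gene gave 4 higher, 102 lower and 3 raised genes. The 3 raised genes are to be read beside 3.65% of all genes with at least 10 and under 500 UMIs. Counts of lower genes rest on few UMIs. Of 357 values of single genes, 325 stayed within their interval, 32 moved beyond it and 8 changed sign. The 8 were ratios of Grasp, Grik2, Cadm2, Lrp1b and Enah that were small at first. Cadm2 went from -0.22 to 0.46 with at least 2 Krt8 UMIs. Settings that left a gene with 0 UMIs in the Krt8 cells gave no ratio and are not counted. Among these, Dll3 (1.32 at first) was in 0 Krt8 cells and 13 others after thinning. Krt17 (2.09 at first) had 0 UMIs in cells with at least 2 Krt8 UMIs and without its richest Krt8 cell.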

Other observations

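Of the 14 Krt8 cells with an Hba-a1 UMI, 9 also held a UMI of Spp1, Areg or Il11 (64.3%, 35.1% to 87.2%). Over all 136 Krt8 cells, which include these 14, 63 did (46.3%, 37.7% to 55.1%). The shares are not at equal depth, and a difference was not tested. Read from the other side at 5000 UMIs per cell, 5.39% (3.41% to 8.05%) of adherent cells with Epcam and 2.61% (2.14% to 3.15%) of those without it were Krt8 cells, and the shares for Btbd17 were 6.55% (3.71% to 10.6%) and 2.67% (2.20% to 3.20%). For Ptgds they were 6.82% (2.54% to 14.3%) and 2.79% (2.32% to 3.32%), with overlapping intervals. All of these shares count the thinned cells of the earlier comparison the other way. Their intervals do not allow for the choice of Epcam and Btbd17 by their ratios.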
